A study of Mus musculus with 17 samples.

Results

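The 10 genes described here are Tph2, Slc6a4, Fev, Gata2, Gata3, Lmx1b, Htr1a, Htr1b, Slc17a8 and Maob, genes that serotonin neurons use or that are commonly read as marking them. They were taken by gene symbol from the deposited expression tables, which hold 78298 genes per library; all 10 were found, and all 10 were among the 16153 genes tested, those with at least 1 TPM (transcripts scaled for length and to one common total per library) in at least 5 libraries. The 17 mouse brainstem libraries of poly(A) RNA comprised 5 from vindeburnol-treated mice, 6 from VB-127-treated mice and 6 from untreated mice. All were male C57BL/6 mice, and the tissue of every library is labelled as locus coeruleus. Vindeburnol is a synthetic compound related to vinca alkaloids and VB-127 is labelled its derivative; each was given by oral gavage in water at 20 mg/kg once a day for 5 days, with tissue taken 24 hours after treatment. The series title states that a molecular target of these compounds was sought. No group is described as gavaged without a compound, so a difference from untreated mice and one from the gavage cannot be told apart.

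Serotonin neurons of the brainstem lie in the raphe nuclei along the midline. They hydroxylate tryptophan with Tph2, load the amine into vesicles, release it and take it back with the transporter Slc6a4, while monoamine oxidases break it down. Gata2, Gata3, Lmx1b and the ETS-family factor Fev (Pet1) specify these neurons in the embryo, and Fev is needed to switch on Tph2 and Slc6a4. Htr1a and Htr1b are inhibitory receptors found on serotonin neurons as autoreceptors and on many other neurons, Slc17a8 (VGLUT3) loads glutamate into the vesicles of a subset of raphe neurons, and Maob also serves astrocytes. Gata2 and Gata3 are likewise used by GABA neurons of the midbrain and hindbrain.

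The label of the tissue and the genes in it did not match in a simple way. Dbh, the enzyme that defines noradrenaline neurons and so the locus coeruleus, was at 0 to 1.72 TPM after vindeburnol, 0 to 2.36 TPM after VB-127 and 0.290 to 18.9 TPM in untreated mice, while Tph2 had a median of 74.2 TPM over the 17 libraries. The noradrenaline transporter gene Slc6a2 stayed under 1 TPM in all libraries of treated mice and reached 8.94 TPM in untreated replicate 1. That library also stood apart in holding no Ucn and 1.04 TPM of the dopamine transporter gene Slc6a3. In these bulk samples, fewer cells of a type and less RNA per cell cannot be told apart. Depth is unknown because TPM carries none; 21016 to 26993 genes were above 0 in a library, and the neuronal non-coding RNA Bc1 took 16.1% to 35.3% of the total.

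The upstream sequences of Tph2, Slc6a4 and Fev are shown because these were the members that varied together most closely between libraries. Each run is the 250 bases before the annotated start, 5′ to 3′ on the gene's strand, from RefSeq on GRCm38.p6, a build other than the GRCm39 of the deposited values. Capitals mark matches to GATA words (AGATAA or AGATAG or TGATAA or TGATAG) or to ETS words (CGGAAG or AGGAAG or CGGAAA or AGGAAA) on either strand; the words overlap nowhere in these 3 runs.
Tph2, chr10:115185023-115185272, minus strand: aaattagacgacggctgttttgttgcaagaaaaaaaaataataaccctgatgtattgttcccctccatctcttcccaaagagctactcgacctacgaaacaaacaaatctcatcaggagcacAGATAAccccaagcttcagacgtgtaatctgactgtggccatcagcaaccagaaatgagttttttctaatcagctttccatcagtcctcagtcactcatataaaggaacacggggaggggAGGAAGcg
Slc6a4, chr11:76998347-76998596, plus strand: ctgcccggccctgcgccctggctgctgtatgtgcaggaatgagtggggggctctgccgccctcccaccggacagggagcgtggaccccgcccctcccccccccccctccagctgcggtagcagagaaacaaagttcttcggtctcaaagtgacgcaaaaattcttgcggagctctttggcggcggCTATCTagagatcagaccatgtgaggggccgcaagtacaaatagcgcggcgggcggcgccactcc
Fev, chr1:74885409-74885658, minus strand: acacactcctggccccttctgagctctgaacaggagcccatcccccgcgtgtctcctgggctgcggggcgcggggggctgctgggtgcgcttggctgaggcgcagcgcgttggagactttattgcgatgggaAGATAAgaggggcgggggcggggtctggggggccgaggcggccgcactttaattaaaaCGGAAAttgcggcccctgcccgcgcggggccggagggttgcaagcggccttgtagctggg
Counted from the start site, Tph2 held AGATAA at -128 to -123 and AGGAAG at -8 to -3. Slc6a4 held the reverse complement of AGATAG at -65 to -60 and no ETS word in this window. Fev held AGATAA at -118 to -113 and CGGAAA at -60 to -55. Among all 32851 upstream windows of this length in the table, 26.5% held a GATA word, 57.2% an ETS word and 15.0% both. Of the 9 members with a window in the table, which has none for Maob, 3 held a GATA word and 7 an ETS word. These counts are of genes with a word in any of their windows, 11 windows in all, whereas the shares are of windows. The ETS word of Slc17a8 was in only 1 of its windows. The words were chosen after the expression values were known, and a match describes the letters only.

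Per library, Tph2, which encodes the rate-limiting enzyme of neuronal serotonin synthesis, spanned the widest absolute range of the 10 genes. It was at 5.82, 54.9, 16.6, 83.2 and 80.9 TPM in vindeburnol replicates 1 to 5. After VB-127 its lowest, median and highest values were 1.08, 71.7 and 102 TPM, and in untreated mice they were 33.2, 84.4 and 129 TPM. The lowest libraries were VB-127 replicate 1, vindeburnol replicates 1 and 3 and VB-127 replicate 4, in that order, and all 3 groups overlapped. The highest value over the 17 libraries was 120 times the lowest.

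Slc6a4, the plasma membrane serotonin transporter, followed the same order at its low end. It was at 5.21, 27.5, 9.26, 50.1 and 46.0 TPM in vindeburnol replicates 1 to 5. The lowest, median and highest values were 0.218, 42.2 and 48.6 TPM after VB-127 and 18.6, 44.8 and 63.6 TPM in untreated mice. The same 4 treated libraries were the lowest, in the same order. Set against Tph2 within each library, Slc6a4 TPM per 100 Tph2 TPM averaged 62.5 ± 15.6 after vindeburnol (SD, n = 5), 49.1 ± 15.3 after VB-127 (SD, n = 6) and 54.1 ± 5.78 in untreated mice (SD, n = 6). The ratio was 89.5 in vindeburnol replicate 1 and 20.2 in VB-127 replicate 1, where both transcripts were scarce. In the other 15 libraries it kept to 47.8 to 65.4, with a mean of 54.8 ± 5.30 (SD, n = 15), although Tph2 itself ranged widely among them.

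Of the 4 transcription factors, Fev was the one that varied like the enzyme and the transporter. Fev was at 0.250, 6.40, 3.08, 11.4 and 8.27 TPM in vindeburnol replicates 1 to 5, with a lowest, median and highest value of 0.531, 5.63 and 9.43 TPM after VB-127 and 4.23, 7.52 and 10.03 TPM in untreated mice. The 4 libraries lowest in Tph2 were again the 4 lowest, with vindeburnol replicate 1 below VB-127 replicate 1. Lmx1b, a LIM-homeodomain factor, was the least abundant member, at 0.614, 1.08, 0.588, 4.06 and 1.77 TPM after vindeburnol, 0.853, 1.70 and 2.29 TPM (lowest, median, highest) after VB-127 and 1.23, 2.10 and 3.23 TPM in untreated mice. Its low libraries were vindeburnol replicates 3 and 1, while VB-127 replicate 1, at 1.35 TPM, was above VB-127 replicate 3.

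The zinc-finger factors Gata2 and Gata3 ordered the libraries differently. Gata2 was at 9.21, 10.2, 10.8, 10.3 and 11.4 TPM in vindeburnol replicates 1 to 5, with a lowest, median and highest value of 6.08, 8.29 and 13.0 TPM after VB-127 and 5.24, 7.18 and 16.2 TPM in untreated mice. The 5 vindeburnol libraries lay close together, with a coefficient of variation of 7.69%, against 29.3% after VB-127 and 47.8% in untreated mice. Gata3 was at 9.56, 15.7, 11.2, 14.03 and 12.9 TPM after vindeburnol, 11.5, 13.4 and 15.8 TPM (lowest, median, highest) after VB-127 and 5.62, 11.7 and 16.1 TPM in untreated mice. Untreated replicate 4, the library with the largest share of Bc1 and the least Snap25, a pan-neuronal gene, was the lowest for both factors. In VB-127 replicate 1, with 1.08 TPM of Tph2, Gata2 was at 7.19 and Gata3 at 11.5 TPM. Reads of Gata3 are uncertain, since the annotation places 3 other genes across it, and Lmx1b, Htr1b and Slc6a4 each have 1 overlapping gene on the opposite strand; no source used here tells if strand entered the quantification.

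The receptors varied less, with coefficients of variation of 21.6% for Htr1a and 20.1% for Htr1b over the 17 libraries, against 58.1% for Tph2. Htr1a was at 5.75, 9.87, 4.32, 7.92 and 6.89 TPM in vindeburnol replicates 1 to 5, with a lowest, median and highest value of 4.93, 7.42 and 9.19 TPM after VB-127 and 5.89, 7.88 and 10.3 TPM in untreated mice. Htr1b was at 9.04, 7.97, 3.87, 5.46 and 5.25 TPM after vindeburnol, 4.92, 6.19 and 7.26 TPM (lowest, median, highest) after VB-127 and 4.57, 6.15 and 6.61 TPM in untreated mice. The highest Htr1b value of the series was thus in vindeburnol replicate 1, the second lowest library for Tph2, and the lowest was in vindeburnol replicate 3.

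Slc17a8, the vesicular glutamate transporter, was low in the libraries poor in Tph2. It was at 0.526, 3.80, 0.337, 3.47 and 2.88 TPM in vindeburnol replicates 1 to 5, with a lowest, median and highest value of 0.227, 2.58 and 5.45 TPM after VB-127 and 1.00, 4.59 and 8.25 TPM in untreated mice. The 4 libraries under 1 TPM were vindeburnol replicates 1 and 3 and VB-127 replicates 1 and 4. Maob, a mitochondrial amine oxidase, had the narrowest relative range, with a coefficient of variation of 14.1% over the 17 libraries. It was at 26.9, 29.9, 26.2, 37.2 and 33.7 TPM after vindeburnol, 23.6, 30.5 and 36.6 TPM (lowest, median, highest) after VB-127 and 24.0, 31.5 and 37.0 TPM in untreated mice. All 3 groups overlapped for both genes.

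**Figure D1:**
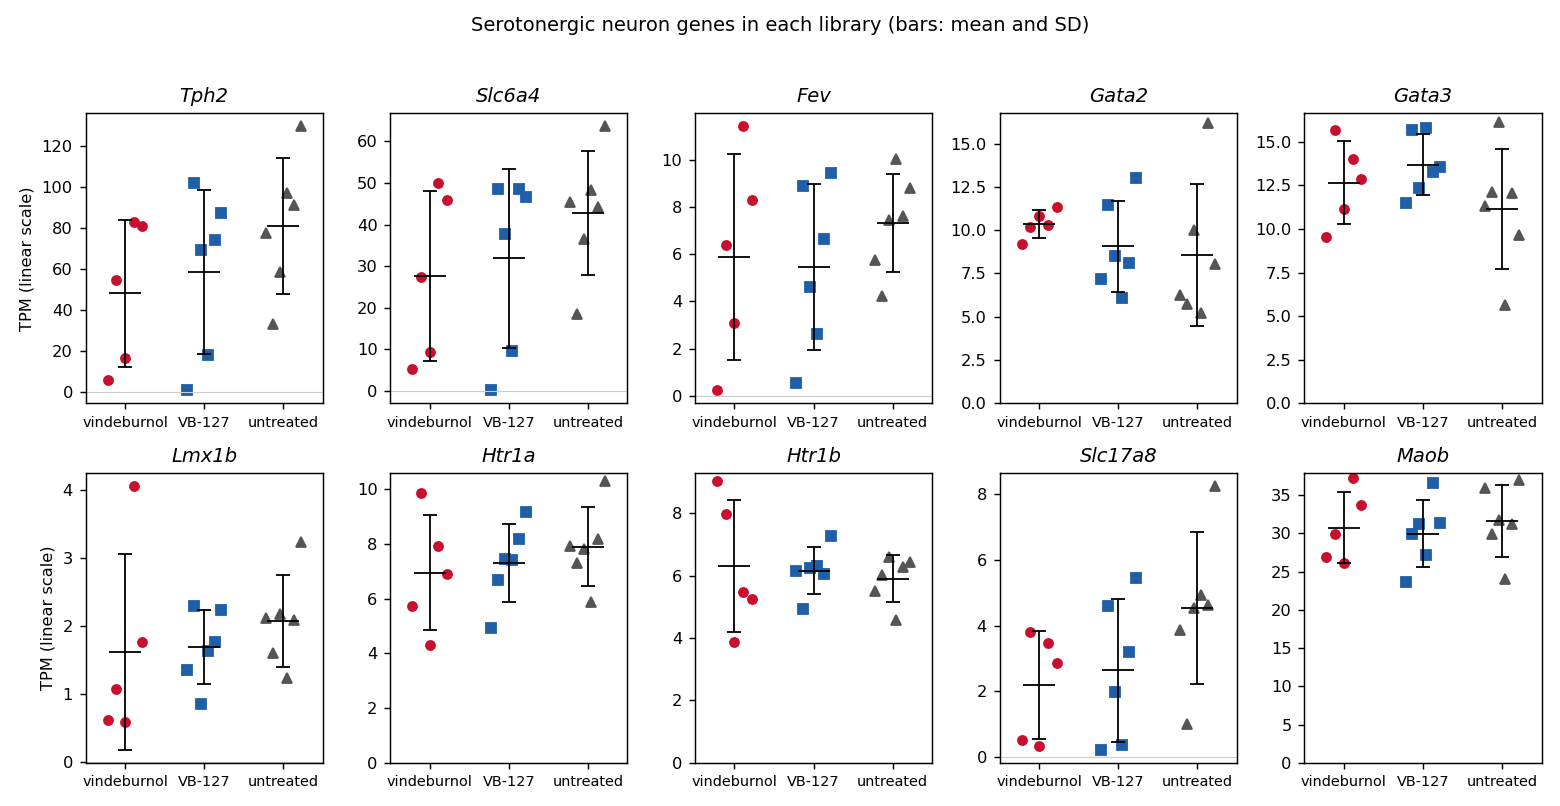
TPM of each of the 10 genes (linear vertical axis from 0) in vindeburnol, VB-127 and untreated libraries; points are libraries, and bars show the mean and SD of 5, 6 and 6 libraries. Tph2, Slc6a4, Fev and Slc17a8 spread down towards 0 in some treated libraries, while Gata2, Gata3, Htr1a, Htr1b and Maob did not.

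Because TPM is scaled by transcript length, levels can be ordered between genes. By median TPM over 17 libraries the order was Tph2 at 74.2, Slc6a4 at 44.3, Maob at 31.2, Gata3 at 12.4, Gata2 at 9.21, Htr1a at 7.44, Fev at 6.66, Htr1b at 6.13, Slc17a8 at 3.47 and Lmx1b at 1.76. Tph2 exceeded Slc6a4, and Maob exceeded Gata3, in 17 of 17 libraries. Gata3 exceeded Gata2 in 16 and Htr1b exceeded Slc17a8 in 15. The other neighbours in this order crossed more often, with the higher gene ahead in 10 to 12 of 17 libraries, so that Slc6a4 and Maob, or Htr1a and Fev, did not separate beyond their spread. The 10 genes summed to 153 ± 70.4 TPM after vindeburnol (SD, n = 5), 167 ± 73.6 TPM after VB-127 (SD, n = 6) and 203 ± 53.9 TPM in untreated mice (SD, n = 6). Tph2 made up 1.90% of that sum in VB-127 replicate 1 and 46.9% in untreated replicate 4.

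None of the 10 genes passed the test in any comparison of groups. In limma on log2(TPM + 1), with adjustment over all genes tested, 0 of 10 were called for vindeburnol against untreated mice, where 0% of all genes were called and 1319 had an unadjusted p under 0.05. For VB-127 against untreated mice 0 of 10 were called, against 0.00619% of all genes, with 1648 genes at an unadjusted p under 0.05. For vindeburnol against VB-127 0 of 10 were called, against 0% of all genes, with 546 at an unadjusted p under 0.05. No member had an unadjusted p under 0.05 in any of the 3 comparisons. The values of 2 groups did not overlap for 0 of 10 members in each comparison, against 0.52%, 0.669% and 0.39% of all genes in the order just given. Nothing in the labels says that libraries came from separate animals, so these p-values measure the spread between samples.

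The widest estimates belonged to the genes with the widest spread. Tph2 averaged 48.3 ± 35.8 TPM after vindeburnol (SD, n = 5) and 81.1 ± 33.2 TPM in untreated mice (SD, n = 6), a log2 difference of -1.15 (SE 0.97, 95% interval -3.22 to 0.92, limma adjusted p = 0.770). After VB-127 Tph2 averaged 58.7 ± 40.0 TPM (SD, n = 6), and its log2 difference from untreated mice was -1.10 (SE 0.92, interval -3.07 to 0.87, limma adjusted p = 0.660). Both treated groups included values far below the untreated range and values within it. Without vindeburnol replicate 1 the first difference was -0.57, and without VB-127 replicate 1 the second was -0.29. The comparisons with untreated mice share the same 6 control libraries.

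Against untreated mice, Slc6a4 differed by -0.96 (interval -2.90 to 0.99) after vindeburnol and -1.06 (interval -2.92 to 0.79) after VB-127 on the log2 scale. Without vindeburnol replicate 1 the first was -0.51, and without VB-127 replicate 1 the second was -0.26. Fev differed by -0.60 and -0.58, Slc17a8 by -0.86 and -0.74, Lmx1b by -0.35 and -0.19 and Htr1a by -0.19 and -0.11, with vindeburnol given first in each pair. Single libraries moved these values: without vindeburnol replicate 1 the Fev difference was -0.07, and without VB-127 replicate 1 it was -0.22. Lmx1b was at -0.20 without vindeburnol replicate 3 and -0.62 without vindeburnol replicate 4, and after VB-127 at -0.09 without VB-127 replicate 3. Htr1a was at -0.06 without vindeburnol replicate 3, at -0.31 without vindeburnol replicate 2 and, after VB-127, at -0.01 without VB-127 replicate 1 and -0.18 without untreated replicate 4. Slc17a8 was at -0.48 after VB-127 without VB-127 replicate 1. For Slc17a8 the limma p after vindeburnol was 0.0999 before adjustment and 0.650 after it, with 5 of 5 vindeburnol libraries below the untreated mean. Gata2 was 0.34 (interval -0.12 to 0.79) above untreated mice after vindeburnol and 0.12 (interval -0.31 to 0.56) after VB-127, a value turning to -0.013 with quantile normalization. Without untreated replicate 5, the library highest in Gata2, the differences were 0.52 after vindeburnol and 0.31 after VB-127, and without untreated replicate 4 that after VB-127 was 0.02. Gata3 was 0.21 above after vindeburnol and 0.32 (interval -0.04 to 0.69, limma adjusted p = 0.532) after VB-127, where 6 of 6 libraries exceeded the untreated mean. Without untreated replicate 4, the library lowest in Gata3, the Gata3 difference was 0.04 after vindeburnol and 0.16 after VB-127. Htr1b and Maob differed by at most 0.08 in size in these comparisons, and the sign of Htr1b turned under 3 other scalings.

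In both comparisons with untreated mice, 7 of 10 members had a negative estimate. Among all 16153 genes, 4895 did after vindeburnol and 3322 after VB-127. The signs of the members are not separate observations, since some members varied together and the comparisons share controls. The median difference of the members was -0.27 after vindeburnol, where the median of all genes was 0.08, and -0.15 after VB-127, where it was 0.11. Median-ratio scaling brought those medians of all genes to 0.0024 after vindeburnol and 0.0075 after VB-127. Between vindeburnol and VB-127, the same dose and schedule, the estimates for the 10 genes lay between -0.16 for Lmx1b and 0.21 for Gata2, with a median of -0.03 against -0.03 for all genes. The intervals were wide for Tph2 (-2.11 to 2.02), Slc6a4 (-1.83 to 2.05), Fev (-1.19 to 1.17) and Slc17a8 (-1.15 to 0.93), and narrow for Maob (-0.23 to 0.30) and Htr1b (-0.35 to 0.33). The limma adjusted p was 0.9999 for each of the 10, which does not show that the compounds act alike.

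**Figure D2:**
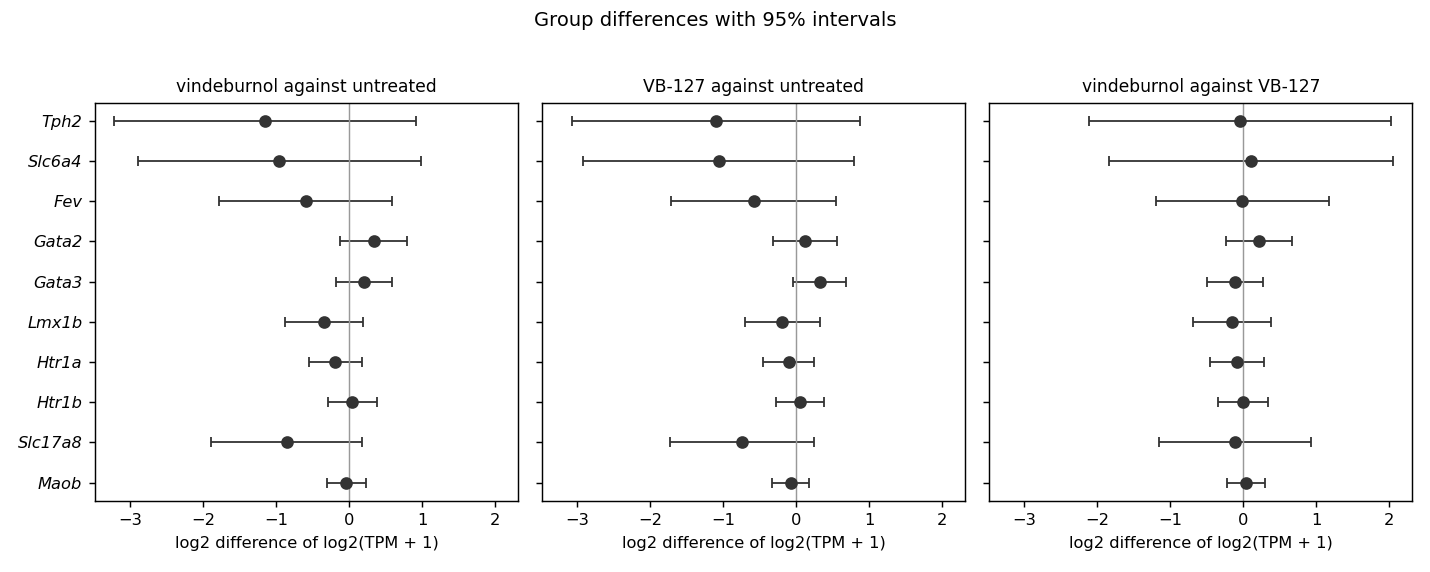
Log2 differences of log2(TPM + 1) for the 10 genes in vindeburnol against untreated, VB-127 against untreated and vindeburnol against VB-127; points are limma estimates and bars 95% intervals, with a grey line at 0. Every interval crosses 0, and those of Tph2 and Slc6a4 are the widest, at -3.22 to 0.92 and -2.90 to 0.99 in the first comparison.

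Some of the 10 genes varied together between libraries within the groups. In limma with group and the Tph2 level as terms, 3 of the other 9 members varied with Tph2 at an adjusted p under 0.05, against 0.118% of the 16152 genes tested, 19 in all; with a positive slope the background was 0.0929%. Slc6a4 had the smallest p of any gene, Fev ranked 2 and Slc17a8 ranked 5. The slope is the change in log2(TPM + 1) of a gene per unit of log2(TPM + 1) of Tph2. It was 0.93 for Slc6a4 (SE 0.03, 95% interval 0.87 to 1.00, limma adjusted p = 7.08e-13), so the transporter moved almost in step with the enzyme. For Fev it was 0.56 (SE 0.06, interval 0.45 to 0.68, adjusted p = 3.68e-05), and for Slc17a8 0.47 (SE 0.07, interval 0.32 to 0.62, adjusted p = 0.0103). Because low values are compressed on this scale, slopes of genes near 1 TPM understate the change.

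The other 6 members were not called. Htr1a had a slope of 0.12 (unadjusted p = 0.0108), Maob 0.09 (unadjusted p = 0.00795) and Lmx1b 0.14 (unadjusted p = 0.0480), ranking 126, 102 and 446, with a limma adjusted p of 0.9999 each. Gata2 at 0.09, Gata3 at 0.04 and Htr1b at -0.03 ranked 1153, 5043 and 7035. Over the 9 members the median slope was 0.12, against -0.003 over all genes, and 8 of 9 were positive, against 7431 of 16152 genes. The 3 calls were made with VB-127 replicate 1 and vindeburnol replicate 1 left out, when 5 genes in all were called, and with any single library left out. With the replicate number as a block, Slc6a4 alone was called. Fev then had a slope of 0.48 and an adjusted p of 0.192, and Slc17a8 a slope of 0.51 and an adjusted p of 0.226.

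**Figure D3:**
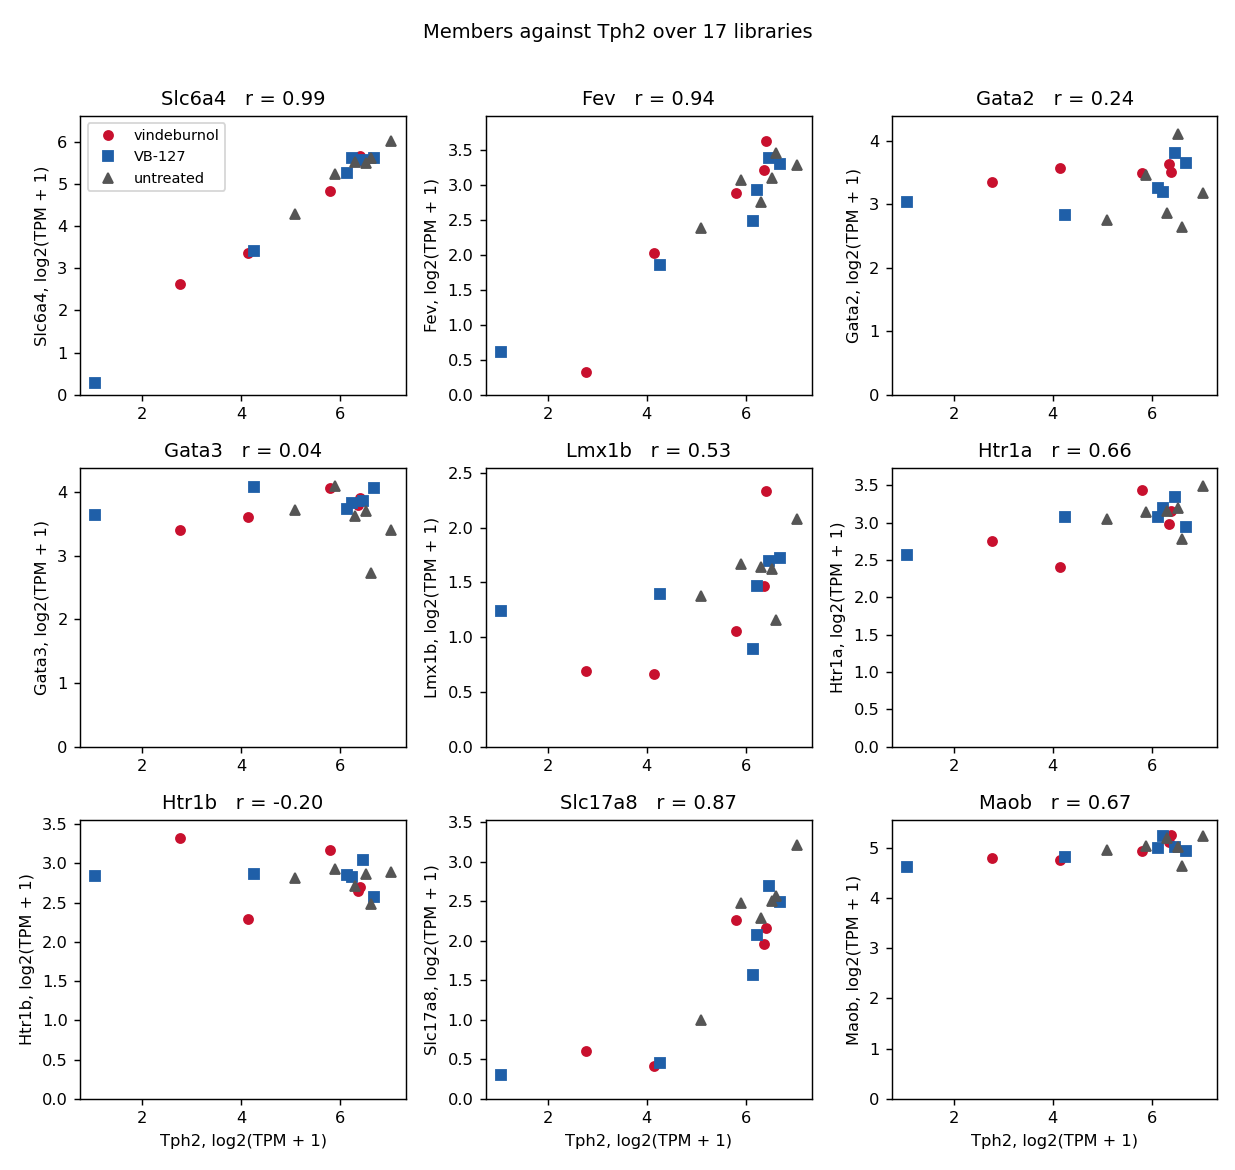
log2(TPM + 1) of the other 9 genes against log2(TPM + 1) of Tph2; each point is 1 of 17 libraries, coloured by group, with Pearson's r above each panel. Slc6a4 (r = 0.99) and Fev (r = 0.94) climb with Tph2 over the whole range, while Gata3 (r = 0.04) is flat.

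Correlations over the 17 libraries gave the same ranking of members, with the group means left in. Tph2 correlated with Slc6a4 at Pearson's r of 0.99 and Spearman's rho of 0.91, with Fev at 0.94 and 0.89 and with Slc17a8 at 0.87 and 0.88; each had a permutation p of at most 2e-05 for r and an adjusted p of 0.00035 over the 105 relations computed, the smallest p possible being 1e-05. For rho the permutation p was at most 3e-05 and the adjusted p 0.00105. Without the 2 libraries farthest from the Tph2 median, VB-127 replicate 1 and vindeburnol replicate 1, these r values were 0.99, 0.88 and 0.93. Maob (r = 0.67, rho = 0.52) and Htr1a (r = 0.66, rho = 0.48) passed for r, with permutation p of 0.00238 and 0.00471 and adjusted p of 0.0208 and 0.0266, but not for rho, with adjusted p of 0.0860 and 0.127. Without those 2 libraries the r of both fell to 0.50 and no longer passed. Without untreated replicate 4 alone, r rose to 0.84 for Maob and 0.73 for Htr1a. Their limma slopes on Tph2 stayed positive in every alternative fit, at 0.08 to 0.12 for Maob and 0.10 to 0.15 for Htr1a. Lmx1b passed for rho (0.69, permutation p = 0.00300, adjusted p = 0.0177) but not for r (0.53, permutation p = 0.0267, adjusted p = 0.0876). Gata2, Gata3 and Htr1b had r of 0.24, 0.04 and -0.20.

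Among all 45 pairs of members, 40 had r above 0 and 15 passed at an adjusted permutation p under 0.05, all positive. With deviations from the group means in place of levels, 13 passed. The count depended on single libraries: it was 8 without untreated replicate 6, the library highest in Tph2, and 8 without the 2 libraries farthest from the Tph2 median. The share of all gene pairs that would pass was not computed, so the count has no background beside it. By r of deviations among 16152 other genes, Slc6a4 ranked 1 for Tph2. For Htr1a, by contrast, Maob ranked 534 and Tph2 1931. Among the pairs without Tph2, Htr1a and Maob correlated at r of 0.72 (permutation p = 0.00098, adjusted p = 0.0114) and rho of 0.69 (permutation p = 0.00292, adjusted p = 0.0177), with r of 0.60 without vindeburnol replicate 3 and VB-127 replicate 1. Lmx1b and Maob correlated at r of 0.68 (permutation p = 0.00303, adjusted p = 0.0227) and rho of 0.74 (permutation p = 0.00127, adjusted p = 0.0111), with r of 0.57 without vindeburnol replicates 4 and 3.

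Dopa decarboxylase (Ddc) and the vesicular monoamine transporter Slc18a2 complete the serotonin pathway but are used by dopamine neurons as well. With Tph2, Ddc had r of 0.40 (permutation p = 0.106, adjusted p = 0.242) and rho of 0.65 (permutation p = 0.0061, adjusted p = 0.0267). Slc18a2 had r of 0.40 (permutation p = 0.109, adjusted p = 0.244) and rho of 0.66 (permutation p = 0.00467, adjusted p = 0.0234). Without VB-127 replicate 1 and vindeburnol replicate 1, r was 0.81 and 0.80. VB-127 replicate 1, lowest in Tph2, held 120 TPM of Ddc and 41.4 TPM of Slc18a2, above the VB-127 medians of 107 and 39.0 TPM, and held 124 TPM of Slc6a3, the highest of the 17 libraries. Lmx1b, which dopamine neurons of the midbrain also express, correlated with Ddc at r of 0.75 (permutation p = 0.00047, adjusted p = 0.00705) and rho of 0.75 (permutation p = 0.00083, adjusted p = 0.00968). With Slc18a2 it had r of 0.71 (permutation p = 0.00124, adjusted p = 0.0130) and rho of 0.70 (permutation p = 0.00239, adjusted p = 0.0177). Without vindeburnol replicates 4 and 3, farthest from the Lmx1b median, those r values were 0.71 and 0.72.

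Genes of other neurons also varied between these libraries. Dbh correlated with Tph2 at rho of 0.82 (permutation p = 0.00016, adjusted p = 0.0028), and its r of 0.56 did not pass (permutation p = 0.0223, adjusted p = 0.0802). Chat, of cholinergic neurons, had rho of 0.64 (permutation p = 0.00638, adjusted p = 0.0268) and an r of 0.52 that did not pass (permutation p = 0.0306, adjusted p = 0.0921). Without the 2 libraries farthest from the Tph2 median, r was 0.59 for Dbh and 0.68 for Chat. All 4 cholinergic markers had positive slopes on Tph2, of 0.13 to 0.24, with 0 called. So did all 3 ependymal markers, at 0.03 to 0.21, and 3 of the 6 pan-neuronal markers, again with 0 called. Of the 7 dopaminergic markers 1 had a positive slope, of the 3 noradrenergic markers tested 2 had one, and 0 of either list were called. Their summed levels ran from 13.6 to 32.6, 14.7 to 32.1 and 18.05 to 62.6 TPM for the cholinergic list after vindeburnol, after VB-127 and in untreated mice. For the dopaminergic list they ran from 214 to 369, 253 to 548 and 205 to 462 TPM, and for the noradrenergic list, which includes Th, from 30.3 to 99.98, 37.6 to 157 and 55.2 to 120 TPM. Between groups, Chat differed from untreated mice by -0.998 after vindeburnol and -0.83 after VB-127 (limma adjusted p = 0.450 and 0.461). The part of these cell types in the covariation or in the group differences was not tested.

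**Figure D4:**
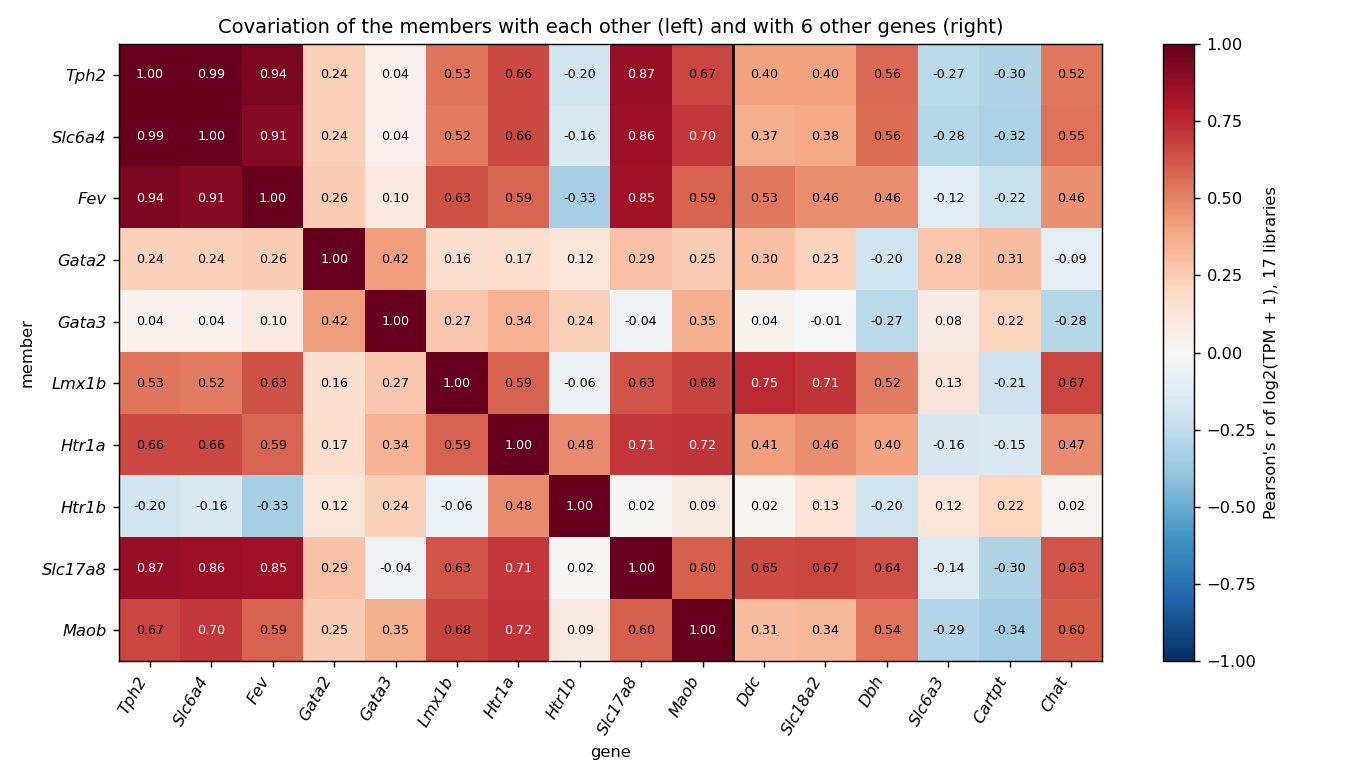
Pearson's r of log2(TPM + 1) over 17 libraries between the 10 genes (left block) and between them and Ddc, Slc18a2, Dbh, Slc6a3, Cartpt and Chat (right block); red is positive and blue negative. Tph2, Slc6a4, Fev and Slc17a8 form the darkest block, with r of 0.85 to 0.99, whereas the row of Htr1b stays between -0.33 and 0.48 outside its diagonal.

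The genes most like Tph2 were ranked by r of deviations from the group means over 17 libraries, among genes that averaged 2 TPM or more and carry an annotated, not a predicted, symbol. Gchfr, a regulator of the enzyme that makes the cofactor of Tph2, led the genes of this selection that are not members at r of 0.91, at rank 4 of all 16152 genes. It was followed by Trh, thyrotropin-releasing hormone, at 0.86 and then by Cbr4, Cd24a, Irs4, Cyp26b1, Sst, Otp, Penk and En2 at 0.85 to 0.78. Gchfr was at 2.23, 7.30, 7.23, 9.56 and 17.6 TPM in vindeburnol replicates 1 to 5, and its lowest values, 1.81 and 2.23 TPM, were in the 2 libraries lowest in Tph2. In limma its slope on Tph2 was 0.49 (SE 0.06, adjusted p = 0.000255), ranking 3, and that of Trh was 0.30 (SE 0.05, adjusted p = 0.0158). Slc6a4 ranked 1, Fev 3 and Slc17a8 12 by this r among 16152 genes; Maob ranked 54, Htr1a 77, Lmx1b 342, Gata2 836, Gata3 2658 and Htr1b 12377.

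At the other end, Prkcd, a protein kinase C isoform, and Tnnt1, a troponin T, had r of -0.84 each, Ramp3 -0.79, Ctxn3 -0.78 and Synpo2 -0.77. Prkcd was at 59.0 TPM in VB-127 replicate 1, where Tph2 was lowest, and at 6.72 to 23.6 TPM in the other 16 libraries. Tnnt1 and Ramp3 were likewise highest there, at 44.7 and 24.3 TPM. Limma called the slopes of Prkcd (-0.40, adjusted p = 0.0103), Tnnt1 (-0.40, adjusted p = 0.0103) and Ramp3 (-0.37, adjusted p = 0.0406). Without VB-127 replicate 1 and vindeburnol replicate 1, limma called 5 genes in all, 3 of them members. With the replicate block it called 2 genes, 1 of them a member. Most calls of genes that are not members were thus lost in these fits. Whether those of Gchfr and Trh were kept is not given here.

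**Figure D5:**
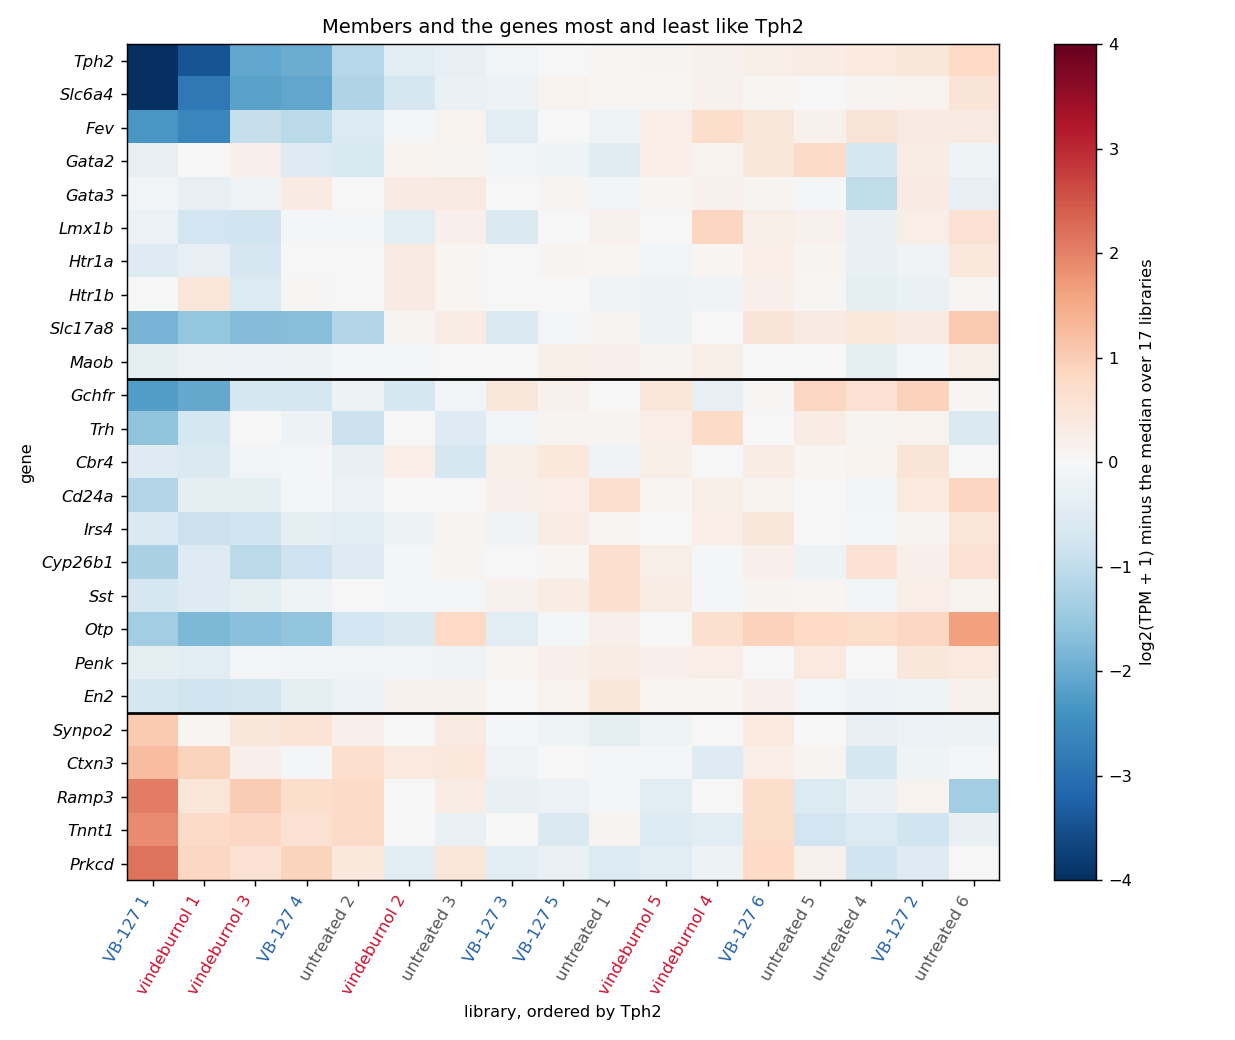
log2(TPM + 1) minus the median over 17 libraries (red above, blue below) for the 10 genes, the 10 other genes most like Tph2 and the 5 least like it; columns are libraries ordered by Tph2 from lowest to highest, with group names in colour. VB-127 replicate 1 and vindeburnol replicate 1, at 1.08 and 5.82 TPM of Tph2, are at the left, and Gata2, Gata3 and Htr1b show no trend along the order.

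The nearest genes of the other members were taken by the same measure and selection. Slc6a4 was closest to Tph2 (0.99), Fev (0.91) and Gchfr (0.89). Slc17a8 was closest to the homeobox gene Otp (0.95), Irs4 (0.91) and Stk32b (0.89), and Fev was closest to Tph2, Slc6a4 and Irs4 (0.86); Otp and Irs4 were also among the 10 genes most like Tph2. Lmx1b was closest to Kank4 (0.85), Trpc4 (0.85) and Crhbp (0.84), Gata2 to Cd1d1 (0.82), and Gata3 to Zdhhc8 (0.86). Htr1a was closest to Pdia4 (0.93) and Hspa5 (0.90), which encode chaperones of the endoplasmic reticulum, and to the cochaperone gene Chordc1 (0.90). Within this selection Htr1b was closest to Tfg (0.94), which ranked 2 for it among all genes, and Maob to Thnsl1 (0.86).

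A set of 4 further lists covered other genes of the serotonin system. Of 16 genes of serotonin synthesis, storage and breakdown 13 were tested, and 0 were called in any comparison of groups. The share of all genes called was 0% for vindeburnol and 0.00619% for VB-127 against untreated mice and 0% for vindeburnol against VB-127, which also stands beside the lists that follow. Their median difference was -0.13 after vindeburnol and -0.07 after VB-127 against untreated mice. Aldh2, an aldehyde dehydrogenase that acts after the monoamine oxidases, had the smallest p after vindeburnol, with a difference of 0.25 (limma adjusted p = 0.425). Qdpr, which recycles the cofactor of Tph2, differed by 0.20 after VB-127 (limma adjusted p = 0.478) and by -0.31 between vindeburnol and VB-127 (limma adjusted p = 0.9999). Tph1, the peripheral form of the enzyme, stayed under 1 TPM in all libraries.

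Of 10 other transcription factors of the serotonergic lineage 10 were tested and 0 called. Nkx2-2, which acts in the progenitors of these neurons, differed by -0.34 after vindeburnol (limma adjusted p = 0.592) and by -0.43 between vindeburnol and VB-127 (limma adjusted p = 0.9999), and Foxa2 by 0.53 after VB-127 (limma adjusted p = 0.479). Of 12 other serotonin receptors 9 were tested and 0 called. Against untreated mice, 5 of the 9 had a positive estimate after vindeburnol and 8 of the 9 after VB-127, with medians of 0.10 and 0.12. Htr5b had the lowest estimate of the list in both, at -0.29 after vindeburnol and -0.42 after VB-127 (limma adjusted p = 0.688 and 0.470). Of 11 transmitter and peptide genes that raphe neurons can hold 11 were tested and 0 called. Against untreated mice, 6 of the 11 had a positive estimate after vindeburnol and 4 after VB-127, with medians of 0.06 and -0.04. Galanin (Gal) had the lowest in both, at -0.87 after vindeburnol and -0.76 after VB-127 (limma adjusted p = 0.507 and 0.468). Gal is also on the noradrenergic list. Its highest values, 7.67 and 7.53 TPM, were in untreated replicates 1 and 6, where Dbh was highest too, at 18.9 and 12.3 TPM. Which cells held the Gal transcripts was not tested. In the test of covariation with Tph2, which called 0.118% of all genes, 1 of 13 pathway genes (Gchfr) and 1 of 11 co-transmitter genes (Trh) were called, and 0 of the factors and receptors. The lists were chosen with earlier results of these data known, so these counts are no independent support.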

How the data were processed

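The authors deposited TPM per gene for each of 17 libraries. The library kit, for poly(A) RNA, was a directional one per the labels' protocols. STAR, Salmon and GRCm39 are named in the submitters' processing notes, without versions. TPM carries no depth, so no interval that needs counts is given, and the number of libraries limits the precision. A second deposited table of all libraries was not used, and 0 columns of unknown samples were present.

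Values were taken as log2(TPM + 1); fold changes on this scale understate those of low genes. Genes with at least 1 TPM in at least 5 libraries (16153) were fitted in limma 3.58.1 (R 4.3.3, trend and robust moderation, two-sided) over all 17 libraries with group as the term, or group and the Tph2 level. Adjustment was by Benjamini-Hochberg over all genes, with calls at an adjusted p under 0.05. The fit was tested on simulated data. Correlations used 100000 permutations (two-sided, numpy 2.4.6), adjusted over 105 relations. The members, lists and sequence words were chosen with earlier results of these data known. Named genes were all members, up to 2 genes of smallest p per list, and, among annotated symbols with a mean reaching 2 TPM, the 10 most and 5 least like Tph2 and the 3 most like each other member. Overlaps between genes come from GENCODE M21, another build than that of the files. Other settings tried were the scaling, filter, pseudocount, moderation, library weights, groups and covariates in the fit, a replicate block and leaving out each library. Over 16 same-numbered pairs of libraries the correlation of deviations was -0.20 to 0.11. The labels do not state if replicate numbers pair libraries, and low correlations cannot settle it.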

Additional observations from a re-analysis of the deposited data

How the results depend on the processing

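No member was called in any comparison of groups under any of 675 alternative estimates, of which 611 kept their sign and 64, all of values not called, turned it. The 3 covariation calls were made under the other pseudocount, 3 other scalings, library weights, plain moderation and without the group term, and 2 without a filter, where Slc17a8 was not called. With a filter of 1 TPM in all libraries the count was 0, since Slc6a4, Fev and Slc17a8 were then not tested. With the replicate block it was 1. Of 16 same-numbered pairs 1 correlated above 0.1, and 1 of 17 libraries correlated best with its own number. The labels do not state if these numbers pair libraries. Leaving out each library in turn kept the covariation calls at 3, kept the members called between groups at 0, and moved the count of correlated member pairs between 8 and 19. That count was 8 without the 2 libraries farthest from the Tph2 median.

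Signs turned for small differences and, with Tph2 as a covariate, also for the larger ones of Slc6a4 and Fev. Where no value shows the cause, the cause was not tested. For vindeburnol against VB-127, Tph2 was 0.046 with a pseudocount of 0.1, 0.42 with library weights and 0.17 with the block. Fev was 0.026 with median ratios, 0.13 with quantiles, 0.30 with weights, 0.11 with the block and 0.013 with Tph2 as a covariate. Htr1b was 0.020, 0.037 and 0.024 with median ratios, quantiles and the block, Lmx1b 0.013 with weights, and Slc17a8 0.055 with weights and 0.083 with the block. Htr1b after vindeburnol against untreated mice was -0.010 with Bc1 removed, -0.034 with median ratios, -0.040 with quantiles and -0.064 with weights; after VB-127 it was -0.0048, -0.053 and -0.077 with the first 3. Gata2 after VB-127 was -0.013 with quantiles and -0.015 with weights. With Tph2 as a covariate, Slc6a4, Fev and Maob after vindeburnol were 0.12, 0.052 and 0.062, against -0.96, -0.60 and -0.04 in the main fit. Fev, Htr1a and Maob after VB-127 were 0.039, 0.024 and 0.021 with it, against -0.58, -0.11 and -0.08. Without untreated replicates 1 and 6, an alternative chosen after the data were seen, Maob was 0.067 after vindeburnol and 0.031 after VB-127. Without VB-127 replicate 1 and vindeburnol replicate 1, the slopes of Gata3 and Htr1b on Tph2 were -0.062 and 0.045, an alternative also chosen later; without the same 2 libraries, the farthest from the Tph2 median, r with Tph2 was -0.25 and 0.19.

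Leaving out each library in turn, differences between vindeburnol and VB-127 ran from -0.86 to 0.54 for Tph2, -0.69 to 0.55 for Slc6a4, -0.38 to 0.51 for Fev, -0.21 to 0.049 for Htr1a, -0.14 to 0.13 for Htr1b, -0.37 to 0.15 for Slc17a8 and -0.033 to 0.095 for Maob. For vindeburnol against untreated mice they ran from -0.083 to 0.18 for Htr1b and -0.11 to 0.015 for Maob, and for VB-127 from -0.0082 to 0.11 for Htr1b. The slope of Htr1b on Tph2 ran from -0.065 to 0.014, r with Tph2 from -0.075 to 0.29 for Gata3 and from -0.39 to 0.050 for Htr1b. Depth, and with it the counting error of values near 0 such as Slc6a4 in VB-127 replicate 1, is unknown.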
